A study of Mus musculus with 34 samples.

Results

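The genes described here are 37 genes of the muscle sarcomere and contractile apparatus: actins, troponins, myosin heavy and light chains, tropomyosins and the proteins that hold these filaments in register. They were chosen by name and not by a threshold on their values, though with earlier results of these data known. All 37 were listed among the 48709 genes counted for the Control and Mta123KO libraries and among the 22018 genes counted for the single mutants. Of the 37, 9 are skeletal forms, 15 cardiac, 6 smooth muscle and 7 are shared by muscle types. RNA was sequenced from mouse embryonic stem (ES) cells of the 129/Ola strain, which are pluripotent, and 34 libraries in 10 groups were compared. MTA proteins are subunits of NuRD, a complex that joins a chromatin remodeller to histone deacetylases, and the question was what the loss of 1 or of all 3 of them does to transcription.

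Control cells were Mta1 +/∆ Mta3 flox/flox, so that they carried 1 deleted Mta1 allele and floxed Mta3, and Mta123KO cells, which lack all 3 MTA genes, were made from Mta1 ∆/∆ Mta3 flox/flox cells by targeting Mta2 and then adding Cre. Control is therefore not the direct parent of Mta123KO. For each genotype 2 lines were sequenced as 2 libraries each under 2 culture labels, 2iL (2 inhibitors with LIF, the self-renewal medium) and 48h (48 hours of differentiation). The single mutants had 3 libraries a group, all grown in 2iL. Mta1_del and Mta3_del, where Cre had removed the floxed exons, were set against their parents Mta1_flox and Mta3_flox. Mta2_KO was set against a separately derived Mta2_WT, which is counted among the parents below for short. A difference between lines cannot be told apart from the loss of Mta2 in that comparison. Nothing in the labels names separate cultures for the libraries of a line, so the p-values measure only the spread between libraries, which may be technical.

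Depth was 37855790 to 57602285 counts a library for Control and Mta123KO and 13105820 to 40613585 for the single mutants. The targeted genes were lower under each label: mean Mta2 fell from 123 to 6.71 CPM labelled 2iL (CPM is the count scaled by the library's total after TMM normalization) and from 192 to 8.28 labelled 48h, Mta3 from 65.1 to 18.9 and from 40.8 to 15.0, and Mta1 was 42.0 in Control and 24.6 in Mta123KO labelled 2iL. The culture labels were contradicted by the pluripotency genes: 8 ES cell markers summed to 729–785 CPM in the Control libraries labelled 2iL and to 4330–4740 CPM in those labelled 48h, and the deposited file names give the opposite culture. The labels are kept as given below. If they were exchanged, the 2 genotype comparisons would swap and every culture difference would change sign. In the Control and Mta123KO libraries mt-Rnr2 held 8.454% to 13.095% of the counts, while no gene held more than 2.862% in the single-mutant set. Olfactory receptor reads, a measure of reads outside expressed genes, summed to 5.03–9.41 CPM in the first set and 31.4–194 CPM in the second. Level differences between the 2 sets cannot be told apart from these differences and were not tested.

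Sarcomeres contract when myosin heads pull on actin filaments, and calcium starts the pull by binding troponin, which shifts tropomyosin off the actin. Skeletal, cardiac and smooth muscle use different genes for most of these parts, and smooth muscle has neither sarcomeres nor troponin but regulates myosin through its light chain. Many of the genes carry a CArG box in the promoter, the site bound by serum response factor (SRF), and MEF2 sites are common in striated muscle genes. Developing muscle also turns on forms of the other muscle types, so that cardiac actin is made in embryonic skeletal muscle.

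Of the 37 genes, 30 had an entry in a RefSeq table of promoters (build GRCm38.p6), and the 250 bases before the start held a CArG box, searched on both strands, in 6 of the 30 (20%), against 1.62% of the 27025 genes in the table. The 6 were Acta1, Actc1, Myl3, Myl7, Myl9 and Ldb3. A MEF2 site was found in 4 of the 30 (13.3%: Mybpc3, Casq2, Ttn and Xirp2), against 1.99% of all genes. The promoters of 3 genes that rose and of Myl7, which passed no test, are shown because all 4 hold the same kind of box at 47 to 161 bases before the start; letters run 5′ to 3′ on the gene's strand and the capitals mark the box. They lie at chr8:123894776-123895025 (minus strand) for Acta1, chr2:114052876-114053125 (minus) for Actc1, chr2:156775214-156775463 (plus) for Myl9 and chr11:5898783-5899032 (minus) for Myl7. Start here is that of the RefSeq entry, which can differ from the start of the annotated gene used for the gene coordinates below. The Actc1 window and its box lie inside the annotated gene (chr2:114047282-114053548), and the annotated Myl9 gene starts at 156775420, within the window.
Acta1: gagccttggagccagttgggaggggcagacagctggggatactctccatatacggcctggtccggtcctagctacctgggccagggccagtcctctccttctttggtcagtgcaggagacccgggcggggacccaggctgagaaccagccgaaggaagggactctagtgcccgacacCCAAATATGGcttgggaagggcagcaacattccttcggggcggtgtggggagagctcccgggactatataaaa
Actc1: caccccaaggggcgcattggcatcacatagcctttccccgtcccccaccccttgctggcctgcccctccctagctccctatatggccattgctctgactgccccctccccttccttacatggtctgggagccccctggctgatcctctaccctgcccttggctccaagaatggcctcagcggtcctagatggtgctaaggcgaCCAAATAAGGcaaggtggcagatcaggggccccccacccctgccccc
Myl9: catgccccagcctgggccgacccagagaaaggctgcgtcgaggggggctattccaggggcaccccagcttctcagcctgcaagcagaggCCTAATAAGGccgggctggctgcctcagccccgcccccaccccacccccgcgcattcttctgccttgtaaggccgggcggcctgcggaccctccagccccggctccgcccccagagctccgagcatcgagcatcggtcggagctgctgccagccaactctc
Myl7: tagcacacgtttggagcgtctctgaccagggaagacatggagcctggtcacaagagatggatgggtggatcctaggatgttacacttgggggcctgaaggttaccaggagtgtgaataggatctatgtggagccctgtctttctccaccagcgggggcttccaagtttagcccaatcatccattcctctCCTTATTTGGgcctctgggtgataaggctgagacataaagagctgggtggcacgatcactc

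The first base of the box lay 73 bases before the RefSeq start in Acta1, 47 in Actc1, 161 in Myl9 and 61 in Myl7. In the libraries labelled 48h Actc1 and Myl9 were among the 3 genes of the list with at least 1 CPM that had the largest fitted changes, while Myl7 differed by 0.27 and -0.27 (log2 fold change) under the 2iL and 48h labels, neither past the test. A match is a description of these letters and not a bound site.

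In Mta123KO most of the contractile genes that could be tested were higher than in Control under both labels. A gene was called increased or decreased at an adjusted p below 0.05 (edgeR's quasi-likelihood test, Benjamini-Hochberg adjustment over all genes tested) with an absolute log2 fold change above 1. Labelled 2iL, 33 of the 37 passed the filter on low counts, 22 were increased and 3 decreased, where 13.2% of all 21651 genes tested were increased and 7.43% decreased. Labelled 48h, 34 passed, 22 were increased and 1 was decreased, against 14.1% and 5.93% of 21079 genes. The median log2 fold change was 1.94 and 2.17, with 0.01 over all genes in each case. Because the list was chosen with earlier results of these data known, the contrast with all genes is a description and not an independent test. The filter favours genes that are high in 1 group; regardless of it, the Mta123KO mean was above the Control mean for 31 of 37 genes labelled 2iL and for 30 labelled 48h. The libraries were bulk RNA, so that more cells of a type and more RNA per cell cannot be told apart.

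The increases were spread over all 3 muscle types. Labelled 2iL, 6 of 8 tested skeletal forms, 10 of 13 cardiac and 4 of 5 smooth muscle forms were increased, and none of these was decreased. Labelled 48h, the counts were 6 of 8 skeletal, 8 of 14 cardiac and 6 of 6 smooth muscle forms, with 1 skeletal form decreased. Forms shared by muscle types were divided, with 2 increased and 3 decreased of 7 labelled 2iL and 2 increased of 6 labelled 48h. The summed level of the 6 smooth muscle genes was 7.64–9.87 CPM in Control and 19.2–70.2 CPM in Mta123KO labelled 2iL, and 2.00–2.68 and 22.8–67.7 CPM labelled 48h. The 15 cardiac genes summed to 19.1–26.6 and 73.1–83.1 CPM labelled 2iL and to 23.6–26.4 and 60.1–96.2 CPM labelled 48h, and the 9 skeletal genes to 19.8–23.6 and 59.8–90.9, and 17.5–27.2 and 54.4–56.7 CPM. The parents of the single mutants, labelled 2iL and counted separately, held skeletal sums of 27.2–33.7 CPM in Mta1_flox, 40.5–41.3 in Mta2_WT and 61.9–92.3 in Mta3_flox. The Mta3_flox range overlapped that of Mta123KO labelled 2iL and lay above that labelled 48h, which was not tested. Neb made up most of the Mta3_flox sum, at 46.96 to 73.64 CPM, while Tnnt3, Tnni2 and Tnnc2 were at most 0.384 CPM there. Neb held 29.48 to 46.43 CPM in Mta123KO labelled 2iL.

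Increased under both labels were 17 genes: Acta1, Tnnt3, Tnni2, Tnnc2, Neb, Actc1, Myh6, Myh7, Myl2, Myl4, Ankrd1, Ryr2, Actg2, Myh11, Myl9, Tagln and Tpm1. Tnni1, Tnnt2, Mybpc3, Casq2 and Xirp1 were called increased labelled 2iL and not labelled 48h, and Tnnt1, Myl3, Acta2, Cnn1 and Ldb3 the reverse; Tnni1 was decreased labelled 48h. Myh3, Myl1, Tnni3, Tnnc1, Myl7, Csrp3 and Ttn were called under neither label. The panels of library values show 12 of the genes.

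**Figure D1:**
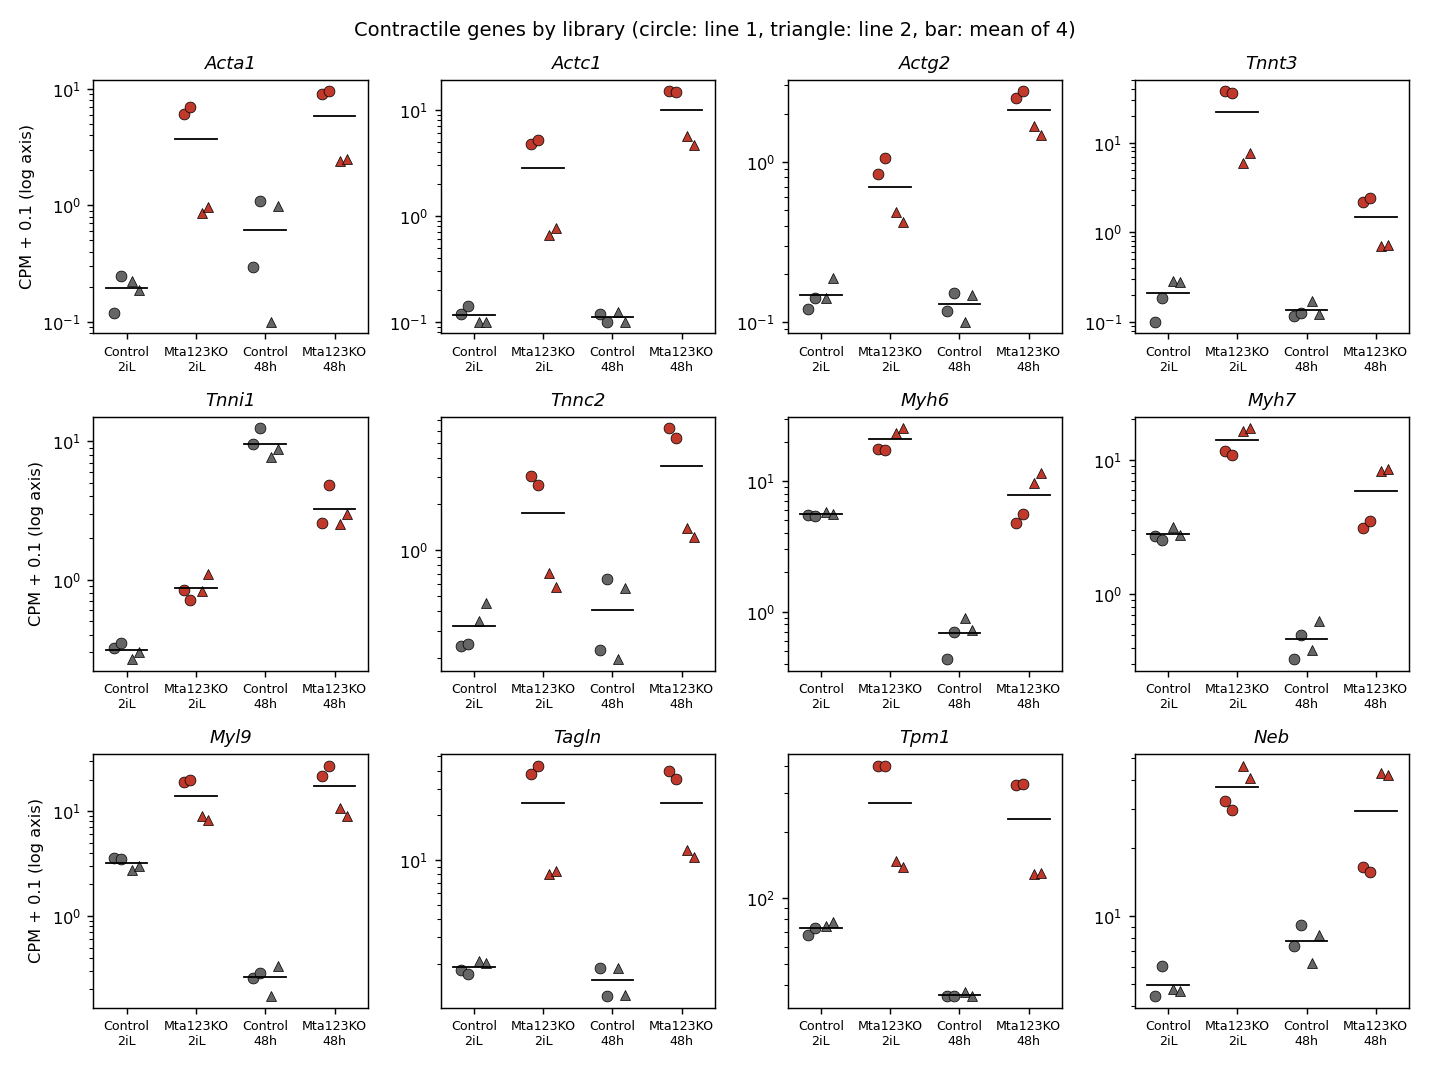
Level of 12 contractile genes, 1 panel each, in CPM plus 0.1 on a log axis that differs between panels, for Control (grey) and Mta123KO (red) under both culture labels. Each point is 1 library, circles are line 1 and triangles line 2, and the black bar is the mean of 4; Actc1 was at most 0.0415 CPM in Control and 0.558–5.08 CPM in Mta123KO labelled 2iL, and Tnni1 is the panel where Mta123KO lies below Control labelled 48h.

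Skeletal and cardiac actin, which build the thin filament, were higher in Mta123KO than in Control. Acta1 (chr8:123891769-123894751, minus strand), the skeletal actin, was at 5.99 and 6.84 in line 1 and 0.752 and 0.861 in line 2 of Mta123KO labelled 2iL, against 0.02, 0.145, 0.124 and 0.0887 CPM in Control. The values labelled 48h were 8.94 and 9.41 in line 1 and 2.28 and 2.37 in line 2, against 0.194, 0.998, 0 and 0.886 CPM. Line 1 was the higher under both labels, and every Mta123KO library labelled 48h exceeded the highest Control library, where 2 of the 4 libraries were near 1 CPM. Acta1 rose by a log2 fold change of 5.24 ± 0.94 (adjusted p = 0.00159) labelled 2iL and 3.51 ± 0.86 (adjusted p = 0.00815) labelled 48h, each with its standard error. The 9 parent libraries of the single mutants, all labelled 2iL and counted in a separate table, held 1.95 to 3.48 CPM of Acta1, above line 2 and below line 1 of Mta123KO labelled 2iL. Labelled 48h, line 2 at 2.28 and 2.37 CPM lay inside that range and line 1 above it. None of this was tested. Actc1 (chr2:114047282-114053548, minus strand), the cardiac actin, was at 4.65 and 5.08 in line 1 and 0.558 and 0.667 in line 2 labelled 2iL, against 0.02, 0.0415, 0 and 0 CPM in Control. Labelled 48h the Actc1 values were 14.9 and 14.6 in line 1 and 5.58 and 4.54 in line 2, against 0.0176, 0, 0.0239 and 0 CPM. Control held 3 Actc1 counts over its 4 libraries labelled 2iL and 2 counts labelled 48h, and the ratios were 177 (95% counting interval 60.4–863) and 861 (238–7120); adjusted p was 0.000907 and 1.79e-05. Such intervals cover counting error only.

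Labelled 48h the smooth muscle actins were also increased. Actg2 (chr6:83512905-83536265, minus strand), the actin of gut smooth muscle, was at 2.4 and 2.66 in line 1 and 1.56 and 1.37 in line 2 of Mta123KO labelled 48h, against 0.0176, 0.0525, 0 and 0.0466 CPM in Control, a log2 fold change of 6.03 ± 0.50 (adjusted p = 2.15e-05). Labelled 2iL it stayed under 1 CPM, at 0.743 and 0.952 in line 1 and 0.388 and 0.323 in line 2, and was also called. Acta2 (chr19:34241090-34255590, minus strand), the vascular form, was at 1.11 and 1.17 in line 1 and 0.357 and 0.401 in line 2 labelled 48h, against 0.0176, 0.0788, 0.0718 and 0.0699 CPM. Labelled 2iL it did not pass the filter on low counts; line 1 held 1.36 and 2.06 CPM, while line 2 at 0.194 and 0.108 CPM lay within or near the Control range of 0.0828 to 0.199. The parent libraries of the single mutants, counted in a separate table, held 3.6 to 13.0 CPM of Acta2, more than any Mta123KO library. This was not tested and cannot be told apart from differences between the 2 sets of libraries.

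Troponin is the calcium switch of striated muscle, made of a tropomyosin-binding (T), an inhibitory (I) and a calcium-binding (C) subunit, and the 3 fast skeletal subunits Tnnt3, Tnni2 and Tnnc2 were all increased. Tnnt3 (chr7:142498836-142516009, plus strand), the fast troponin T, was at 37.5 and 36.3 in line 1 and 5.78 and 7.64 in line 2 of Mta123KO labelled 2iL, against 0, 0.0831, 0.186 and 0.177 CPM in Control. Labelled 48h its values were lower, 2.06 and 2.31 in line 1 and 0.603 and 0.62 in line 2, against 0.0176, 0.0263, 0.0718 and 0.0233 CPM. Tnnt3 rose by 7.62 ± 0.94 (adjusted p = 0.0002) and 5.27 ± 0.71 (adjusted p = 0.000322) on the log2 scale, and in both cases line 1 exceeded line 2. Tnni2 (chr7:142441808-142444410, plus strand), the fast inhibitory subunit, was at 2.1 and 2.08 in line 1 and 0.413 and 0.473 in line 2 labelled 2iL, against 0.02, 0.166, 0.0207 and 0 CPM, a log2 fold change of 4.56 ± 0.91 (adjusted p = 0.00276). Tnnc2 (chr2:164777161-164779967, minus strand), the fast calcium-binding subunit, was at 2.95 and 2.56 in line 1 and 0.607 and 0.473 in line 2 labelled 2iL, against 0.14, 0.145, 0.248 and 0.355 CPM. Labelled 48h the Tnnc2 values were 6.1 and 5.3 in line 1 and 1.29 and 1.11 in line 2, against 0.123, 0.552, 0.0958 and 0.466 CPM. The Tnnc2 increase was 2.91 ± 0.67 (adjusted p = 0.00585) and 3.52 ± 0.75 (adjusted p = 0.00391); in line 2 it was small, with 0.607 and 0.473 CPM beside a highest Control value of 0.355 labelled 2iL. The Tnnc2 transcripts share 47.9% of their 50-base words with the opposite strand of Ube2c, which averaged 105 CPM in Control and 124 CPM in Mta123KO labelled 2iL and 122 and 114 CPM labelled 48h; whether counting kept the strands apart is not given in the sources used here.

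The slow skeletal and cardiac subunits did not move as 1 group. Tnnt1 (chr7:4504570-4516382, minus strand), the slow troponin T, was at 19.1 and 15.2 in line 1 and 4.4 and 5.29 in line 2 of Mta123KO labelled 48h, against 2.17, 3.1, 2.32 and 1.98 CPM in Control, an increase of 2.21 ± 0.47 (adjusted p = 0.00388). Labelled 2iL it was at 8.47 and 9.34 in line 1 and 3.08 and 4 in line 2, against 10.2, 12.6, 9.34 and 9.49 CPM, a difference of -0.72 ± 0.33 (adjusted p = 0.0966) that did not pass. Tnni1 (chr1:135779434-135810989, plus strand), the slow inhibitory subunit, was decreased labelled 48h, at 2.45 and 4.73 in line 1 and 2.41 and 2.9 in line 2, against 9.43, 12.3, 7.66 and 8.67 CPM, and fell by 1.60 ± 0.24 on the log2 scale (adjusted p = 0.000667). Labelled 2iL, where it stayed under 1 CPM, Tnni1 was increased, at 0.743 and 0.612 in line 1 and 0.728 and 0.99 in line 2, against 0.22, 0.249, 0.166 and 0.2 CPM. Tnnt2, the cardiac troponin T, averaged 0.136 CPM in Control and 0.912 in Mta123KO labelled 2iL and was called there; labelled 48h it averaged 1.0 and 1.69 CPM, and the groups overlapped. Tnni3 and Tnnc1, the cardiac inhibitory and calcium-binding subunits, were not called, with Tnni3 at means of 2.83 and 3.29 CPM labelled 2iL and 6.69 and 3.98 CPM labelled 48h, and Tnnc1 between 0.286 and 0.375 CPM in all 4 groups.

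Of the 4 myosin heavy chains, the motors of the thick filament, Myh6, Myh7 and Myh11 were increased under both labels. Myh6 (chr14:54941921-54966927, minus strand), the alpha cardiac chain, was at 17.4 and 17.2 in line 1 and 23.2 and 25.1 in line 2 of Mta123KO labelled 2iL, against 5.39, 5.34, 5.69 and 5.5 CPM in Control. Labelled 48h it was at 4.64 and 5.45 in line 1 and 9.63 and 11.3 in line 2, against 0.335, 0.604, 0.79 and 0.629 CPM. Myh6 rose by 1.94 ± 0.14 (adjusted p = 1.32e-05) and 3.74 ± 0.37 (adjusted p = 5.82e-05) on the log2 scale, and line 2 was the higher line. Myh7 (chr14:54970684-54994626, minus strand), the beta cardiac and slow skeletal chain, was at 11.6 and 10.7 in line 1 and 16.1 and 17 in line 2 labelled 2iL, against 2.62, 2.43, 3.04 and 2.64 CPM. Labelled 48h the Myh7 values were 2.98 and 3.41 in line 1 and 8.11 and 8.43 in line 2, against 0.229, 0.394, 0.287 and 0.536 CPM. Myh7 rose by 2.39 ± 0.18 (adjusted p = 1.5e-05) and 4.0 ± 0.45 (adjusted p = 0.000115), again with line 2 above line 1. The 2 genes are neighbours, and 20.2% of the 50-base words of Myh6 and 15.6% of those of Myh7 occur in another gene, mostly in the other of the pair, so reads of these stretches cannot be assigned to 1 of them.

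Myh11 (chr16:14194535-14291372, minus strand), the smooth muscle heavy chain, was at 1.87 and 1.47 in line 1 and 0.898 and 1.08 in line 2 labelled 2iL, against 0.699, 0.332, 0.497 and 0.488 CPM, an increase of 1.41 ± 0.30 (adjusted p = 0.00416); labelled 48h it was called at means of 0.376 and 0.748 CPM. Myh3, the embryonic skeletal heavy chain, was not called. Its values labelled 2iL were 0.658 and 0.838 in line 1 and 3.33 and 4.35 in line 2 of Mta123KO, against 4.91, 4.28, 5.03 and 5.54 CPM in Control, so that line 1 lay far below Control and line 2 below it or within its range. Labelled 48h Myh3 averaged 1.16 CPM in Control and 1.2 CPM in Mta123KO.

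Myosin light chains bind the neck of the motor, and of those with at least 1 CPM Myl9 had the largest increase labelled 48h, while Myl2 and Myl4 exceeded it labelled 2iL. Myl9 (chr2:156775420-156781658, plus strand), the regulatory light chain of smooth muscle, was at 18.7 and 19.9 in line 1 and 8.96 and 8.05 in line 2 of Mta123KO labelled 2iL, against 3.44, 3.41, 2.65 and 2.9 CPM in Control. The values labelled 48h were 21.6 and 27.1 in line 1 and 10.7 and 8.88 in line 2, against 0.159, 0.184, 0.0718 and 0.233 CPM. Myl9 rose by 2.18 ± 0.31 (adjusted p = 0.000453) and 6.71 ± 0.50 (adjusted p = 1.29e-05) on the log2 scale; the larger change labelled 48h went with Control values below 0.25 CPM, while the Mta123KO means were 13.9 and 17.1 CPM. Myl2 (chr5:122100951-122113472, plus strand), the regulatory light chain of the cardiac ventricle, was at 2.02 and 1.59 in line 1 and 1.36 and 1.23 in line 2 labelled 2iL, against 0.2, 0.145, 0.228 and 0.333 CPM. Labelled 48h the Myl2 values were 4.57 and 4.55 in line 1 and 1.9 and 2.48 in line 2, against 0.264, 0.657, 0.527 and 0.396 CPM. Myl2 rose by 2.78 ± 0.29 (adjusted p = 8e-05) and 2.90 ± 0.38 (adjusted p = 0.000291), and all Mta123KO libraries lay above 1 CPM.

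Myl4 (chr11:104550663-104595753, plus strand), the atrial and embryonic essential light chain, was at 4.22 and 6.09 in line 1 and 2.5 and 2.63 in line 2 labelled 2iL, against 0.579, 1.06, 0.89 and 0.687 CPM. Labelled 48h it was at 6.28 and 7.1 in line 1 and 2.48 and 2.48 in line 2, against 1.48, 1.42, 0.982 and 0.792 CPM. Myl4 rose by 2.28 ± 0.33 (adjusted p = 0.000533) and 1.98 ± 0.41 (adjusted p = 0.00333). The parents of the single mutants, counted separately, held 0.428 to 1.38 CPM of Myl4 in Mta1_flox and 2.76 to 3.6 CPM in Mta2_WT. Mta3_flox held 5.83 to 8.51 CPM, which reached or passed the highest Mta123KO values and was not tested. Myl3, the ventricular essential light chain, had no count in any of the 4 Control libraries labelled 48h and 135 counts in Mta123KO (0.424 to 1.02 CPM), which put it at least 42.9-fold higher against a floor of 3 counts over the group. The 48h median of 2.17 is the same with Myl3 set at that bound. Myl7, the atrial regulatory light chain, averaged 0.473 to 1.13 CPM in the 4 groups without passing, and Myl1, the fast skeletal essential light chain, stayed at or below 0.132 CPM in each Control and Mta123KO library.

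Tropomyosin lies along the actin filament, and its 2 genes in the list went different ways. Tpm1 (chr9:67022590-67049406, minus strand), which makes muscle and non-muscle forms from 1 gene, was at 399.6 and 402 in line 1 and 148 and 138 in line 2 of Mta123KO labelled 2iL, against 67.7, 73.3, 74.2 and 77.7 CPM in Control. The values labelled 48h were 328 and 332 in line 1 and 129 and 130 in line 2, against 35.9, 35.6, 37.1 and 35.8 CPM. Tpm1 rose by 1.91 ± 0.36 (adjusted p = 0.00203) and 2.68 ± 0.33 (adjusted p = 0.000205) on the log2 scale, with line 1 more than line 2, and no library of Mta123KO came near Control. Per kilobase of exon it had the highest level of the 37 genes in each of the 4 groups, at means of 11.3 and 41.9 CPM per kb in Control and Mta123KO labelled 2iL and 5.57 and 35.4 labelled 48h. Tpm2 (chr4:43514711-43523765, minus strand), the beta form of skeletal and smooth muscle, was at 9.95 and 13.1 in line 1 and 3.69 and 5.38 in line 2 labelled 2iL, against 18.4, 20.5, 15.8 and 16.4 CPM, and fell by 1.13 ± 0.34 (adjusted p = 0.0206), a call lost without Control library 1_2 or Mta123KO library 2_1 or 2_2. Labelled 48h the lines parted, at 8.29 and 7.91 in line 1 and 1.68 and 2.02 in line 2, against 2.85, 3.39, 2.94 and 2.52 CPM, and the gene was not called (0.77 ± 0.50 (adjusted p = 0.223)).

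Tagln and Cnn1 bind actin in smooth muscle. Tagln (chr9:45929619-45936058, minus strand), transgelin, was at 37.7 and 43.3 in line 1 and 7.91 and 8.37 in line 2 of Mta123KO labelled 2iL, against 1.7, 1.6, 1.97 and 1.91 CPM in Control. Labelled 48h it was at 40 and 35.2 in line 1 and 11.6 and 10.4 in line 2, against 1.76, 1.1, 1.77 and 1.12 CPM. Tagln rose by 3.78 ± 0.60 (adjusted p = 0.000831) and 4.08 ± 0.51 (adjusted p = 0.000198), and line 1 held several times the level of line 2. Its transcripts share 58.3% of their 50-base words with the opposite strand of Pcsk7, which averaged 9.15 CPM in Control and 14.1 CPM in Mta123KO labelled 2iL and 12.6 and 17.7 CPM labelled 48h, while Tagln in Control was under 2 CPM. Cnn1 (chr9:22099216-22109630, plus strand), calponin, was at 1.66 and 0.923 in line 1 and 0.849 and 0.93 in line 2 labelled 48h, against 0.194, 0.342, 0.215 and 0.163 CPM, an increase of 2.27 ± 0.33 (adjusted p = 0.000511). Labelled 2iL its values were 2.06 and 2.52 in line 1 and 0.85 and 1.36 in line 2, against 3.9, 3.08, 2.4 and 2.79 CPM, a difference of -0.82 ± 0.31 (adjusted p = 0.0518) that did not pass.

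Among the large filament proteins Neb changed and Ttn, titin, was not called. Neb (chr2:52136647-52378474, minus strand), nebulin, which sets thin filament length in skeletal muscle, was at 32.5 and 29.5 in line 1 and 46.4 and 41 in line 2 of Mta123KO labelled 2iL, against 4.33, 5.94, 4.68 and 4.57 CPM in Control. The values labelled 48h were 16.5 and 15.7 in line 1 and 43 and 42.1 in line 2, against 7.28, 9.06, 6.13 and 8.21 CPM. Neb rose by 2.95 ± 0.17 (adjusted p = 4.9e-06) and 1.94 ± 0.35 (adjusted p = 0.00171), and line 2 was above line 1 in both. The parents of the single mutants, counted separately, held 6.28 to 7.14 CPM of Neb in Mta1_flox and 11.65 to 12.26 CPM in Mta2_WT. Mta3_flox held 46.96 to 73.64 CPM, above every Mta123KO library. This was not tested and cannot be told apart from differences between the 2 sets of libraries. Ttn (chr2:76703980-76982547, minus strand), the spring of the sarcomere, was at 97.4 and 184 in line 1 and 162 and 132 in line 2 labelled 2iL, against 72.8, 55.2, 91.8 and 79.5 CPM, a difference of 0.96 ± 0.21 (adjusted p = 0.00435) that stayed under the fold threshold. Labelled 48h Ttn was at 219 and 153 in line 1 and 162 and 173 in line 2, against 221, 182, 206 and 166 CPM, with overlapping groups. Mybpc3 (chr2:91118144-91136516, plus strand), the cardiac myosin-binding protein C, was at 1.49 and 1.56 in line 1 and 2.94 and 2.19 in line 2 labelled 2iL, against 0.699, 0.519, 0.58 and 0.377 CPM, an increase of 1.92 ± 0.29 (adjusted p = 0.000577); labelled 48h the difference was 0.58 ± 0.24 (adjusted p = 0.0706) and the groups overlapped.

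The genes of the Z-disc and cell junctions moved in both directions. Des (chr1:75360329-75368579, plus strand), desmin, the intermediate filament of muscle, was at 7.87 and 7.32 in line 1 and 6.41 and 7.1 in line 2 of Mta123KO labelled 2iL, against 12.1, 15.4, 15.4 and 17.4 CPM in Control, and fell by 1.05 ± 0.13 (adjusted p = 0.000173), close enough to the fold threshold to be lost without Control library 2_2 or Mta123KO library 2_1. Labelled 48h Des was at 3.51 and 4.13 in line 1 and 7.35 and 8.17 in line 2, against 7.33, 7.8, 10.7 and 12.2 CPM, and was not called (-0.70 ± 0.29 (adjusted p = 0.0691)). Xirp2 (chr2:67446002-67526614, plus strand), an actin-binding repeat protein of cell junctions, was at 0.0425 and 0.0906 in line 1 and 0 and 0 in line 2 labelled 2iL, against 0.899, 0.727, 2.24 and 2.48 CPM, and fell by 5.44 ± 0.76 (adjusted p = 0.000413). Line 2 had no Xirp2 count against 300 in Control, at least 45.7-fold lower against a floor of 3 counts. Xirp1 (chr9:120013755-120023598, minus strand), its relative, went the other way labelled 2iL, at 1.93 and 1.09 in line 1 and 0.777 and 0.603 in line 2, against 0.0799, 0.104, 0.186 and 0.222 CPM (2.90 ± 0.47 (adjusted p = 0.000886)). Labelled 48h the Xirp1 values were 1.87 and 1.8 in line 1 and 0.759 and 0.584 in line 2, against 2.24, 1.45, 2.08 and 1.14 CPM, which overlapped. Ldb3 (chr14:34526603-34588682, minus strand), a Z-disc protein that binds alpha-actinin, was at 3.74 and 3.32 in line 1 and 7.84 and 7.63 in line 2 labelled 48h, against 1, 1.42, 1.17 and 1.56 CPM, an increase of 2.14 ± 0.32 (adjusted p = 0.000598); labelled 2iL its difference of 0.61 ± 0.18 was below the fold threshold. Csrp3, a muscle LIM protein, averaged at most 0.0379 CPM in any of the 4 groups and was not tested.

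The remaining genes serve stress signalling and calcium release. Ankrd1 (chr19:36111961-36120099, minus strand), an ankyrin repeat protein induced in stressed heart muscle, was at 4.61 and 4.19 in line 1 and 0.825 and 1.08 in line 2 of Mta123KO labelled 2iL, against 0.02, 0.104, 0 and 0.0222 CPM in Control. Labelled 48h it was at 15.3 and 16 in line 1 and 5.25 and 4.34 in line 2, against 0.0176, 0.105, 0.0239 and 0.233 CPM. Ankrd1 rose by 6.11 ± 0.89 (adjusted p = 0.000518) and 6.79 ± 0.74 (adjusted p = 9.49e-05), with each Mta123KO library above every Control library. Ryr2 (chr13:11553102-12106945, minus strand), the cardiac calcium release channel, was at 23.5 and 29 in line 1 and 20.4 and 20.9 in line 2 labelled 2iL, against 6.79, 6.09, 11.9 and 9.07 CPM. Labelled 48h the Ryr2 values were 29.2 and 23.1 in line 1 and 15.6 and 15.8 in line 2, against 9.15, 6.49, 10.1 and 8.34 CPM. Ryr2 rose by 1.49 ± 0.21 (adjusted p = 0.000483) and 1.30 ± 0.22 (adjusted p = 0.00127), so that it already had a level of several CPM in Control and had one of the smaller increases. Casq2, which stores calcium in the sarcoplasmic reticulum, averaged 0.147 CPM in Control and 0.846 CPM in Mta123KO labelled 2iL, where it was called, and 0.717 and 1.37 CPM labelled 48h, where it was not.

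**Figure D2:**
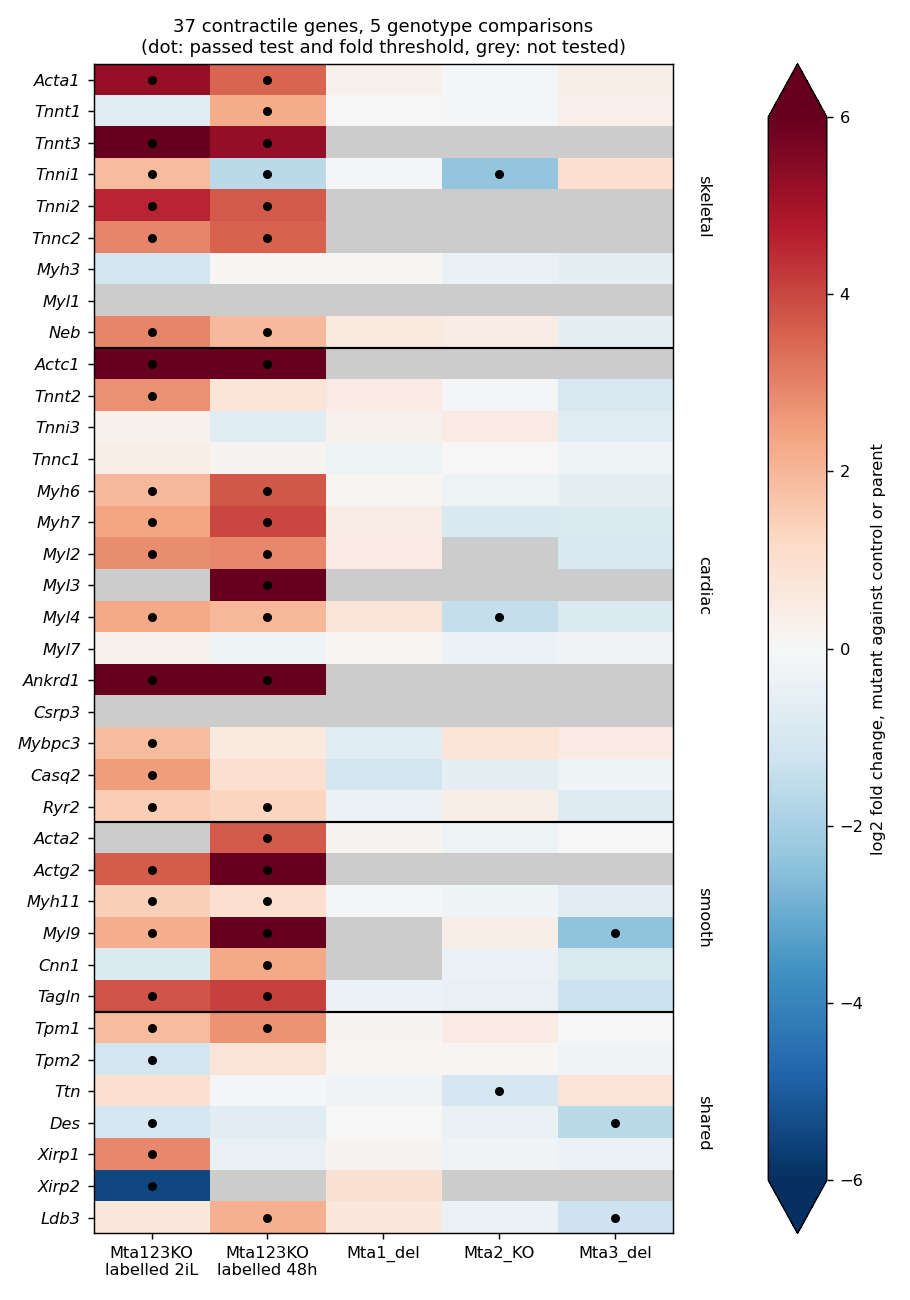
Heat map of log2 fold changes, with the 37 contractile genes down the side in blocks of skeletal, cardiac, smooth muscle and shared forms, and 5 comparisons across: Mta123KO against Control under both culture labels and the 3 single mutants against their parents. Red is higher and blue lower in the mutant on a scale that ends at 6 and -6, dots mark called genes and grey cells were not tested; the Mta123KO columns hold 25 and 23 dots and the single mutants 0, 3 and 3.

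Each genotype holds 2 lines, and a fit in which the 2 libraries of a line were summed called 18 increased and 2 decreased genes labelled 2iL and 18 increased and 1 decreased labelled 48h, where 7.68% and 3.91% of all genes were called labelled 2iL and 9.07% and 3.44% labelled 48h. Of the genes called with at least 1 CPM, those lost there were Tnni2, Tnnc2, Myh11, Tpm1 and Tpm2 labelled 2iL (adjusted p 0.0606 to 0.146) and Tnnt1, Neb and Myl4 labelled 48h (0.0525 to 0.0745). With libraries scaled by ERCC spike-in RNA, the 48h comparison over all genes gave 2611 increased and 1784 decreased in place of 2969 and 1249, and its median log2 fold change moved from 0.01 to -0.18; 21 contractile genes were then increased and 1 decreased.

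The 2 Mta123KO lines differed from each other more than the Control lines did. Over genes with at least 1 CPM, the median absolute log2 ratio between lines was 0.24 (16 genes) in Control and 1.01 (26 genes) in Mta123KO labelled 2iL, and 0.19 (17 genes) and 1.21 (28 genes) labelled 48h; this is a description, with no test. Tested directly, line 2 was below line 1 for 19 of 35 tested genes and above it for 1 labelled 2iL, where 6.71% and 4.66% of all genes were called. Labelled 48h, 16 of 34 were below and 5 above, against 5.62% and 3.58%. Below in line 2 under both labels were 15 genes, and the genes above it differed: Myh3 labelled 2iL and Neb, Myh6, Myh7, Des and Ldb3 labelled 48h.

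Among genes with at least 1 CPM in the higher line, the largest line differences were those of Acta2 labelled 2iL (-3.49 ± 0.45 (adjusted p = 0.00021)) and Tnnc2 labelled 48h (-2.25 ± 0.44 (adjusted p = 0.00409)), as log2 fold changes of line 2 against line 1. Acta1 differed by -2.98 ± 0.29 labelled 2iL (adjusted p = 2.97e-05) and -1.99 ± 0.64 labelled 48h (adjusted p = 0.0414). Actc1 differed by -2.97 ± 0.30 (adjusted p = 3.8e-05) and -1.55 ± 0.18 (adjusted p = 0.000232). Tnnt3 differed by -2.45 ± 0.23 (adjusted p = 2.7e-05) and -1.84 ± 0.31 (adjusted p = 0.00175). In Acta1, Actc1 and Tnnt3 both lines stayed above Control. Tagln differed by -2.31 ± 0.11 (adjusted p = 6.32e-07) and -1.79 ± 0.18 (adjusted p = 9.28e-05), Tpm1 by -1.48 ± 0.08 (adjusted p = 8.63e-07) and -1.36 ± 0.06 (adjusted p = 1.43e-06), and Tpm2 by -1.33 ± 0.19 (adjusted p = 0.000439) and -2.14 ± 0.19 (adjusted p = 4.1e-05). Higher in line 2 were Myh3 labelled 2iL (2.37 ± 0.22 (adjusted p = 2.68e-05)) and, labelled 48h, Neb (1.39 ± 0.14 (adjusted p = 9.44e-05)) and Myh7 (1.36 ± 0.24 (adjusted p = 0.00205)). Several of these calls rested on single libraries, an alternative chosen after the data were seen. Labelled 48h Acta1, Myl2 and Acta2 lost their calls when any 1 of the 4 Mta123KO libraries was left out, and Myh6, Des and Xirp1 without library 1_1 or 2_2. Labelled 2iL Tnnt2 lost its call without Control library 2_1 or 2_2 or any 1 of the 4 Mta123KO libraries, and Myl4 without Control 1_1, 1_2 or 2_1 or Mta123KO 1_2, 2_1 or 2_2. Tnni2 lost it without Mta123KO 2_1 or 2_2, Cnn1 without 1_2 or 2_1 and Xirp1 without 1_1, 2_1 or 2_2.

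**Figure D3:**
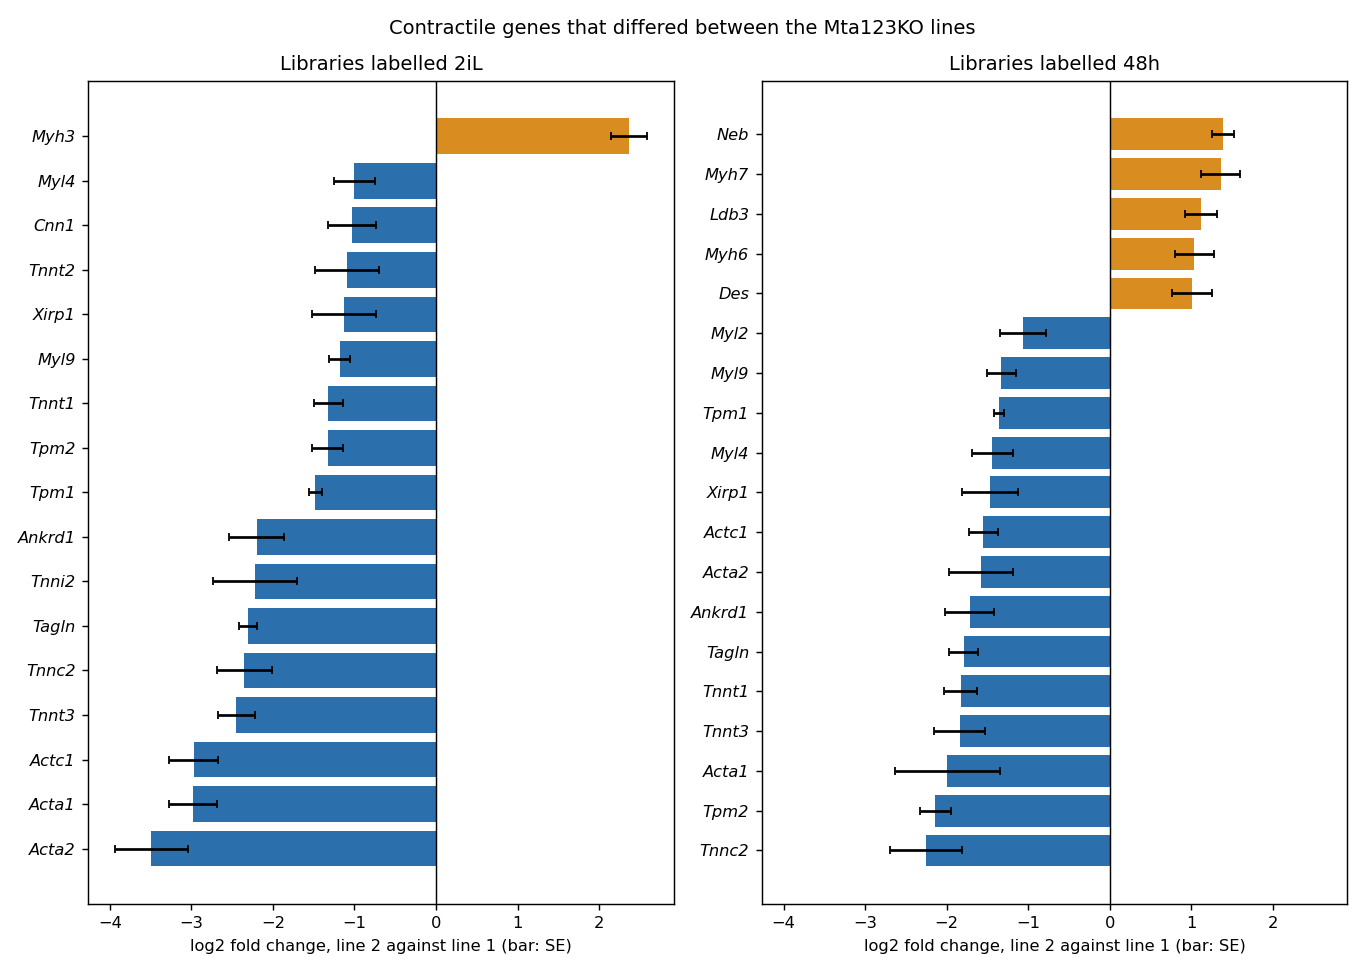
Log2 fold change of Mta123KO line 2 against line 1 for the contractile genes called with at least 1 CPM in the higher line, 17 labelled 2iL on the left and 19 labelled 48h on the right, with bars of 1 standard error. Blue bars left of 0 mark genes higher in line 1 and orange bars genes higher in line 2.

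Set against the same Control libraries, line 1 had 24 increased and 2 decreased of 35 tested genes labelled 2iL, where 16.3% and 10.6% of all genes were called, and line 2 had 21 and 5, against 12.5% and 8.33%. Labelled 48h, line 1 had 24 and 2 of 34, against 16.8% and 8.2%, and line 2 had 21 and 2, against 13.7% and 6.61%. Both lines share these controls, so the counts are not independent of each other. Tpm2 labelled 48h was increased in line 1 (1.48 ± 0.15 (adjusted p = 1.13e-05)) and at -0.65 ± 0.17 (adjusted p = 0.0082) in line 2, below the fold threshold. Xirp1 labelled 48h was at 0.09 ± 0.27 (adjusted p = 0.792) in line 1 and fell by 1.37 in line 2 (adjusted p = 0.00409). Acta2 labelled 2iL was increased in line 1 (3.52 ± 0.35 (adjusted p = 5.92e-06)) and at 0.03 ± 0.52 (adjusted p = 0.96) in line 2. Myh3 labelled 2iL fell by 2.72 in line 1 (adjusted p = 6.34e-07) and was at -0.35 ± 0.16 (adjusted p = 0.0949) in line 2. Neb labelled 48h gave 1.08 ± 0.12 (adjusted p = 3.12e-05) in line 1 and 2.48 ± 0.12 (adjusted p = 1.3e-07) in line 2, and Myh7 3.18 ± 0.24 (adjusted p = 1.76e-06) and 4.54 ± 0.23 (adjusted p = 1.93e-07). The call of Neb in line 1 was lost without Control library 2_1 and that of Xirp1 in line 2 without Mta123KO library 2_2.

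Between the culture labels the contractile genes changed in both directions in Control. Of 35 tested, 9 were increased and 11 decreased labelled 48h against 2iL, where 10.2% and 13.2% of all genes were called; in Mta123KO 6 were increased and 3 decreased, against 5.55% and 6.11%. The largest increase in Control was that of Tnni1, from a mean of 0.209 to 9.52 CPM (5.49 ± 0.28 (adjusted p = 5.03e-10)), followed by Xirp1 (3.54 ± 0.51 (adjusted p = 2.85e-05)), Tnnt2 (2.86 ± 0.41 (adjusted p = 2.72e-05)) and Mybpc3 (2.68 ± 0.29 (adjusted p = 1.48e-06)). Myl9 had the largest decrease among genes with at least 1 CPM (-4.24 ± 0.50 (adjusted p = 3.89e-06)), followed by Cnn1 (-3.74 ± 0.37 (adjusted p = 5.36e-07)), Myh6 (-3.23 ± 0.30 (adjusted p = 3.35e-07)) and Xirp2 (-3.20 ± 0.68 (adjusted p = 0.00103)). In Mta123KO, Tnnt3 was the most changed, from 21.8 to 1.40 CPM (-3.97 ± 0.65 (adjusted p = 0.000289)), and Actc1 and Ankrd1 went the other way, with 1.85 ± 0.60 (adjusted p = 0.0287) and 1.93 ± 0.59 (adjusted p = 0.0213). The calls of Actc1 and Ankrd1 were lost without Mta123KO library 2_1 or 2_2 labelled 2iL or library 1_1 or 1_2 labelled 48h, the digits giving line and library. The parent libraries of the single mutants, all labelled 2iL, offer a comparison: of 17 genes that differed between the labels in Control, the median of the 9 parent libraries was nearer the 48h Control median for 12 and nearer the 2iL median for 5 on the scale of log2(CPM + 0.1), and for 15 and 2 on the CPM scale.

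**Figure D4:**
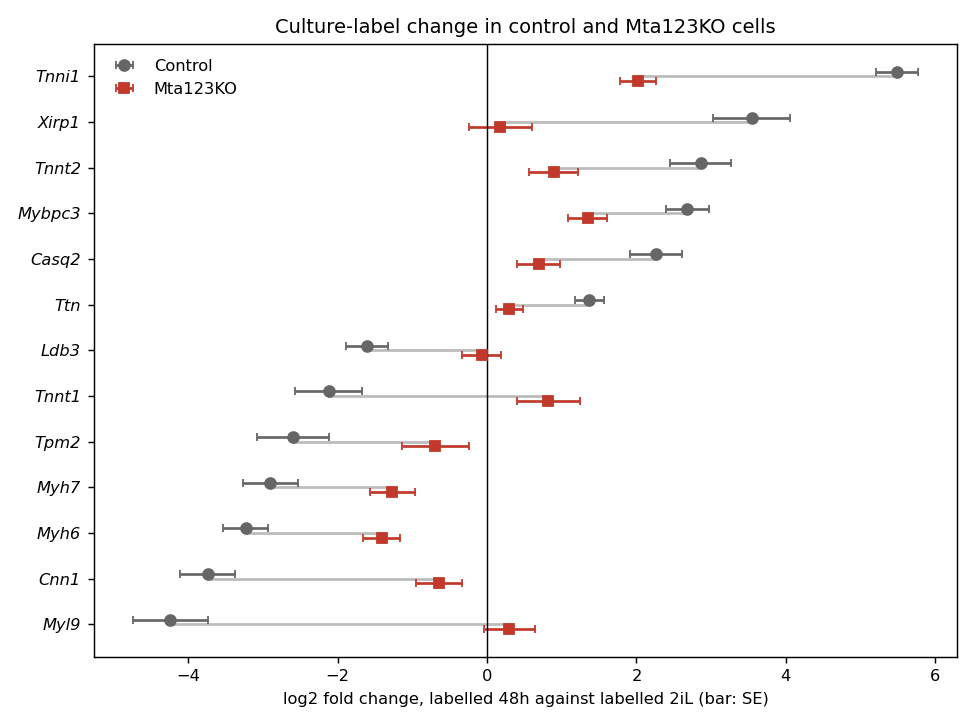
Log2 fold change of libraries labelled 48h against libraries labelled 2iL in Control (grey circles) and Mta123KO (red squares), with bars of 1 standard error, for the 13 contractile genes with at least 1 CPM whose genotype effect differed between the labels. Grey lines join the points of a gene; Tnni1 is right of 0 in both genotypes, and Myl9, at -4.24 in Control, is at 0.30 in Mta123KO.

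The genotype effect differed between the labels (interaction term) for 14 of 35 genes, 8 with a more positive effect labelled 48h and 6 with a more negative one, where 7.66% and 5.37% of all genes were called. Among genes with at least 1 CPM Myl9 had the most positive interaction (4.53 ± 0.61 (adjusted p = 8.08e-05)): its Control mean fell from 3.10 CPM labelled 2iL to 0.162 CPM labelled 48h, with no such fall in Mta123KO (0.30 ± 0.34 (adjusted p = 0.56)). Cnn1 (3.10 ± 0.48 (adjusted p = 0.000257)), Tnnt1 (2.94 ± 0.61 (adjusted p = 0.00262)), Tpm2 (1.91 ± 0.65 (adjusted p = 0.0442)) and Myh6 (1.82 ± 0.39 (adjusted p = 0.00304)) followed. The call of Tpm2 was lost in 13 of the 16 fits that left out 1 library, that of Ttn without library 1_2 of either genotype labelled 2iL and that of Myh7 without Control library 1_1 labelled 48h. Tnni1 had the most negative (-3.48 ± 0.36 (adjusted p = 6.7e-06)), then Xirp1 (-3.36 ± 0.66 (adjusted p = 0.00167)). For Tnni1 the 2 genotypes exchanged order, with Mta123KO higher labelled 2iL and lower labelled 48h.

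In the single mutants 6 calls were made among the contractile genes, all of them decreases. In Mta1_del 26 of 37 were tested and none was called, as none of all 14561 genes was. Over all genes, 50 had an unadjusted p below 0.05, and DESeq2 called none with 88 below 0.05. Mta1 itself was not called, though it was at 38.5–48.0 CPM in Mta1_del and 69.0–105 CPM in Mta1_flox. The lack of calls therefore does not show that expression was unchanged. Blocking on the replicate number, which pairs these libraries, gave 0 increased and 0 decreased contractile genes. That blocked fit called 0 of all 14561 genes in either direction, with 468 at an unadjusted p below 0.05. Its lack of calls is therefore not particular to the contractile genes. In Mta2_KO 26 were tested, none was increased and 3 were decreased, against 5.31% and 6.04% of 15602 genes. In Mta3_del 27 were tested, none was increased and 3 were decreased, against 0.812% and 5.25% of 15522 genes. The median log2 fold changes of the tested contractile genes were 0.12, -0.29 and -0.55. Medians over all genes are not given here, and in Mta3_del decreases outnumbered increases over all genes too. The -0.55 is therefore not read as particular to the contractile genes. Of the 5 genes with the largest increases in Mta123KO labelled 2iL, Tnnt3 reached at most 0.233 CPM in these 18 libraries, Actc1 0.271, Ankrd1 0.349 and Tnni2 0.384 CPM, and none of the 4 was tested. Acta1 was at 1.95 to 4.53 CPM in all 18 and was not called in any single mutant. These values lay above line 2 of Mta123KO labelled 2iL, while line 2 labelled 48h, at 2.28 and 2.37 CPM, fell inside their range.

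The decreases in Mta2_KO were Tnni1, Myl4 and Ttn. Tnni1 was at 4.25, 4.41 and 3.89 CPM in Mta2_KO and 22, 21.5 and 21.8 CPM in Mta2_WT, and fell by 2.38 ± 0.08 on the log2 scale (adjusted p = 3.58e-08). Myl4 was at 1.31, 0.935 and 1.21 CPM and 2.76, 3.01 and 3.6 CPM, a fall of 1.44 ± 0.19 (adjusted p = 0.000227). Ttn was at 358, 367 and 418 CPM and 764, 833 and 682 CPM, and fell by 1.0 ± 0.09 (adjusted p = 1.58e-05), at the fold threshold. The groups did not overlap in any of the 3, and Ttn lost its call in a fit of all 18 libraries (adjusted p = 0.0884), with the replicate number as a block and without Mta2_KO 1, Mta2_KO 2 or Mta2_WT 2, in each case with a change near the threshold. Below the fold threshold, Tpm1 was higher (0.49 ± 0.06 (adjusted p = 0.000129)), as were Neb (0.45 ± 0.07 (adjusted p = 0.000673)), Mybpc3 (0.83 ± 0.18 (adjusted p = 0.00489)) and Ryr2 (0.37 ± 0.08 (adjusted p = 0.00415)), while Myh7 (-0.91 ± 0.25 (adjusted p = 0.0144)) and Des (-0.42 ± 0.09 (adjusted p = 0.00443)) were lower. In the Mta123KO comparisons Tnni1 was increased labelled 2iL and decreased labelled 48h, and Myl4 was increased under both labels.

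The decreases in Mta3_del were Myl9, Des and Ldb3. Myl9 was at 0.184, 0.31 and 0.0873 CPM in Mta3_del and 0.678, 1.08 and 1.29 CPM in Mta3_flox, and fell by 2.41 ± 0.55 (adjusted p = 0.0262). Des was at 6.55, 7.22 and 11.1 CPM and 23.2, 23.6 and 26.2 CPM, a fall of 1.62 ± 0.20 (adjusted p = 0.0141). Ldb3 was at 1.91, 2.13 and 2.1 CPM and 3.93, 5.54 and 4.64 CPM, and fell by 1.26 ± 0.24 (adjusted p = 0.0208). The groups did not overlap, but these calls depended on single libraries: without Mta3_del 1 none of the 3 was called, as was the case for nearly all genes of that comparison (1 increased and 2 decreased), and without Mta3_del 3, Mta3_flox 2 or Mta3_flox 3 Des was the 1 called of the 3; Myl9 was also lost without Mta3_flox 1. Below the fold threshold, Ttn was higher (0.79 ± 0.21 (adjusted p = 0.0414)) and Ryr2 lower (-0.78 ± 0.19 (adjusted p = 0.0312)). Summed olfactory receptor reads, a measure of reads outside expressed genes, were 172, 149 and 40.8 CPM in Mta3_flox and 46.6, 85.2 and 33.7 CPM in Mta3_del, and 10 fibroblast marker genes summed to 20.1–66.8 and 10.6–14.2 CPM. With the olfactory receptor sum as a covariate, an alternative chosen after the data were seen, Des alone was called; the part of fibroblast RNA in these differences was not tested.

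For Mta1_del the values of the same genes overlapped: Tnni1 was at 12.5, 12.2 and 8.58 CPM in Mta1_del and 17.9, 10.4 and 7.52 CPM in Mta1_flox. Ttn was at 297, 110.2 and 91.7 CPM and 113, 288 and 161 CPM, and Des at 11.2, 7.19 and 21 CPM and 6.28, 15.4 and 16.3 CPM. Parents also differed from each other: mean Ttn was 187 CPM in Mta1_flox, 759 CPM in Mta2_WT and 193 CPM in Mta3_flox, for which no test was made.

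**Figure D5:**
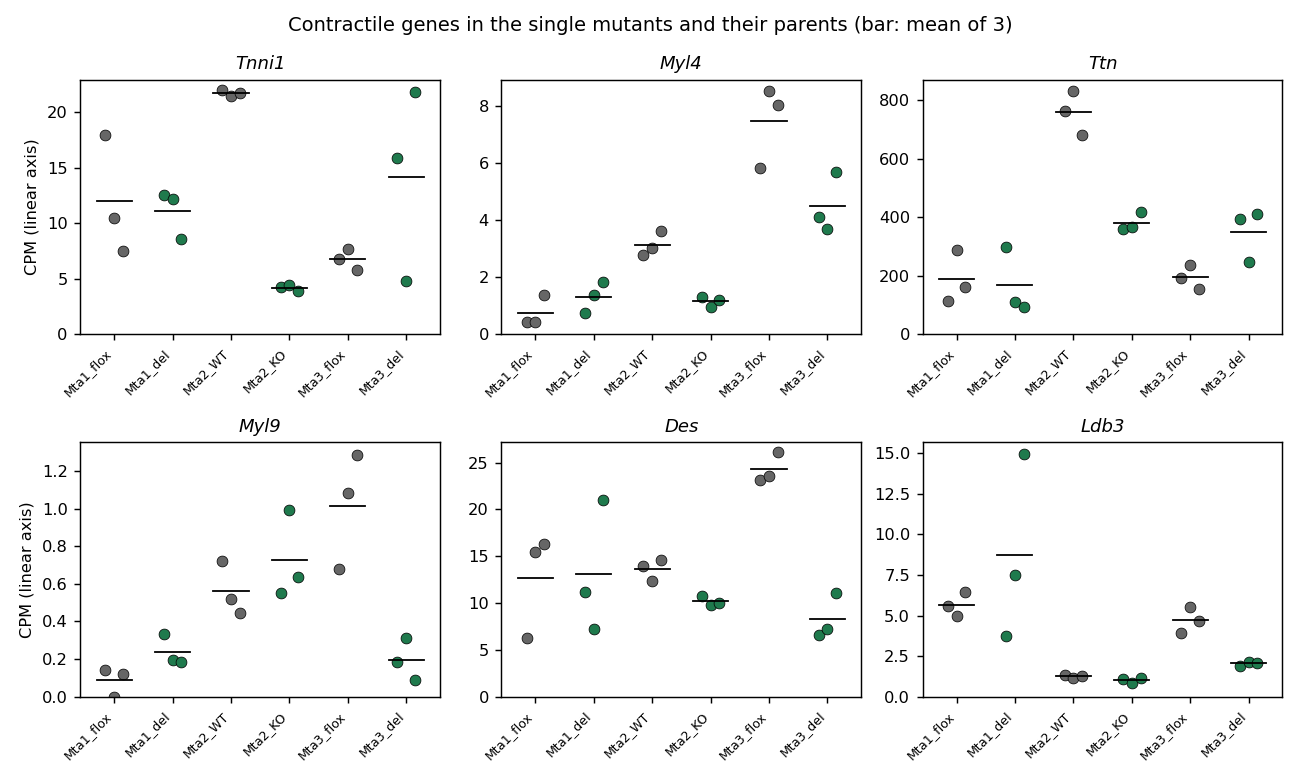
Levels of the 6 contractile genes called in a single mutant, in CPM on linear axes that start at 0, with 1 point per library, 3 libraries a group and a bar at the mean; parents are grey and mutants green. Tnni1 in Mta2_KO (3.89 to 4.41 CPM) lies far below Mta2_WT (21.5 to 22.0 CPM), and the Mta1 groups overlap.

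Other genes of the muscle programme, listed apart from the 37, are given as counts in Mta123KO against Control, to be read against the 13.2% increased and 7.43% decreased of all genes labelled 2iL and 14.1% and 5.93% labelled 48h. These lists were also chosen with earlier results of these data known. Of 24 other sarcomere genes tested labelled 2iL, 13 were increased and 1 decreased (Actn3, -1.93 ± 0.30), and of 30 labelled 48h, 12 were increased and 1 decreased; Cryab, a small heat shock protein of muscle, rose by 5.40 ± 0.75 and 4.51 ± 0.57. Of 13 genes of calcium handling and metabolism, 6 were increased and 1 decreased labelled 2iL and 8 increased labelled 48h. Of muscle transcription factors, 7 were increased and 3 decreased of 24 tested labelled 2iL, and 7 and 1 of 23 labelled 48h. That list also held Hand1, a trophoblast marker below, Gata4 and Gata6, primitive endoderm markers below, and Srf and Yap1. The counts therefore do not stand for factors of muscle alone. Of 18 target genes of SRF and the YAP pathway, 7 were increased and 1 decreased labelled 2iL, and 9 and 2 labelled 48h. Non-muscle relatives of the contractile proteins had 2 increased and 2 decreased of 19 labelled 2iL and 2 increased labelled 48h, led by Cnn2 (2.69 ± 0.40 and 3.71 ± 0.35). Markers of other cell types differed as well: the 7 trophoblast markers summed to 7.47–14.0 CPM in Control and 63.0–165 CPM in Mta123KO labelled 2iL, and labelled 48h to the overlapping ranges of 74.0–94.3 and 54.7–109 CPM. The largest part of the Control sum labelled 48h was Tfap2c, with means of 74.6 CPM in Control and 49.8 CPM in Mta123KO. Eomes (8.02 and 5.62) and Cdx2 (1.04 and 1.99) overlapped between the groups. Gata3 (0.31 and 5.81), Ascl2 (0.947 and 16.3), Elf5 (0.264 and 1.27) and Hand1 (0.0388 and 0.889) were higher in Mta123KO labelled 48h without overlap. Primitive endoderm markers summed to 8.87–22.6 and 16.8–28.2 CPM labelled 2iL and to 4.65–5.76 and 18.7–21.7 CPM labelled 48h, and endothelial markers to 40.2–53.8 and 50.5–96.3, and 88.0–113 and 50.4–103 CPM. Mean Dab2 was 4.83 and 13.2 CPM labelled 2iL and 0.895 and 14.7 labelled 48h. Mean Gata4, Gata6 and Sox17 were lower in Mta123KO labelled 2iL and Sox7, Pdgfra and Foxa2 higher. Labelled 48h Gata4 and Sox7 were lower and the others higher. Mean Pecam1, the largest endothelial part, was 38.8 and 37.2, and 88.9 and 47.2 CPM. The sums do not identify a cell type. The 8 ES cell markers summed to 729–785 and 806–909 CPM labelled 2iL and to 4330–4740 and 2330–3380 CPM labelled 48h, and the 6 markers of primed cells to 791–1320 and 258–333, and 104–108 and 117–141 CPM. Fibroblast markers summed to 3.37–5.91 and 11.8–16.8 CPM labelled 2iL and to 7.51–12.8 and 12.9–17.2 CPM labelled 48h; 5 of 6 tested were increased and 1 decreased, and 2 of 4 increased. Their part in the contractile gene values was not tested.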

How the data were processed

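RNA-seq libraries of mouse ES cells (16 of Control and Mta123KO, 18 of single mutants and parents) were analysed from the read counts per gene that the authors deposited. Per the labels and the study's methods, reads were trimmed with Trim Galore, aligned to GRCm38/mm10 with TopHat2 and counted with featureCounts on an Ensembl annotation; the strand setting and the treatment of reads with several matches are not given in the sources used here. The counts are whole numbers, not normalized, for 48709 genes and 92 ERCC spike-ins, which were kept out of the tests, and for 22018 genes in the single mutants. Groups were taken from the sample labels. The members and all gene lists were chosen with earlier results of these data known.

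CPM values were computed from the deposited counts with TMM-scaled library sizes. Each genotype comparison was fitted in edgeR 4.0.16 (R 4.3.3, limma 3.58.1) with filterByExpr, TMM and the quasi-likelihood test, on the libraries of its own 2 groups, with Benjamini-Hochberg adjustment over all genes tested; lines were compared in 1 fit per culture label and culture in 1 fit of the 16 libraries. Calls required an adjusted p below 0.05 together with a log2 fold change beyond 1 in either direction. Every library's value and full statistics are given for called genes that averaged 1 CPM or more in 1 of the groups, and the others by counts and ranges. Of each other list, up to 2 genes in a direction were named by largest change. Alternatives were DESeq2 1.42.0, its size factors in edgeR, no filter, ERCC scaling, summed lines, 1 fit per set, no fold threshold, a replicate block and each library left out; leaving out libraries in the line and culture fits and the olfactory receptor covariate were added after the data were seen. Scripts were tested on simulated data, where edgeR recovered the changed genes. The same-numbered Mta1 libraries deviated together (r 0.628, 0.477 and 0.733), as did the same-numbered Control libraries under both culture labels (0.382 to 0.457), so that these numbers pair the libraries. In Mta123KO r was 0.646 to 0.698 for the same number under both labels. The highest r with a differently numbered library was 0.659 to 0.674, so the numbers do not clearly pair libraries there. The other comparisons share only a number. All values in the text come from fits without the block unless it is named. Sequences came from RefSeq tables, and figures were drawn with matplotlib 3.10.9 (Python 3.11.15, numpy 2.4.6, pandas 2.3.3).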

Additional observations from a re-analysis of the deposited data

Results flagged for a closer look

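In groups of 4 libraries, 2 of 92 had 1 library far from the others, where chance gives about 1 in 20. These were Tnni3 at 2.31 CPM in 1 library of Control labelled 2iL and Cnn1 at 1.66 CPM in 1 library of Mta123KO labelled 48h.

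The genotype effect on 13 genes with at least 1 CPM differed between the culture labels by the interaction term of the edgeR fit, given as log2 fold changes labelled 48h minus 2iL. It was more positive labelled 48h for Myl9 (4.53), Cnn1 (3.10), Tnnt1 (2.94), Tpm2 (1.91), Myh6 (1.82), Myh7 (1.63) and Ldb3 (1.54). It was more negative for Tnni1 (-3.48), Xirp1 (-3.36), Tnnt2 (-1.97), Casq2 (-1.57), Mybpc3 (-1.33) and Ttn (-1.07). The call of Tpm2 was lost in 13 of 16 fits that left out 1 library, that of Ttn in 2 and that of Myh7 in 1.

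The Mta123KO lines differed in the test of line 2 against line 1. Labelled 2iL the log2 fold changes were -3.49 for Acta2, -2.98 for Acta1, -2.97 for Actc1, -2.45 for Tnnt3, -2.35 for Tnnc2, -2.31 for Tagln, -2.22 for Tnni2 and -2.20 for Ankrd1. Smaller differences in the same direction were those of Tpm1 (-1.48), Tpm2 (-1.33), Tnnt1 (-1.32), Myl9 (-1.18), Xirp1 (-1.13), Tnnt2 (-1.09), Cnn1 (-1.03) and Myl4 (-1.0), and Myh3 was higher in line 2 (2.37).

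Labelled 48h, line 2 was lower for Tnnc2 (-2.25), Tpm2 (-2.14), Acta1 (-1.99), Tnnt3 (-1.84), Tnnt1 (-1.83), Tagln (-1.79), Ankrd1 (-1.72), Acta2 (-1.58), Actc1 (-1.55), Xirp1 (-1.47), Myl4 (-1.44), Tpm1 (-1.36), Myl9 (-1.33) and Myl2 (-1.06). It was higher for Neb (1.39), Myh7 (1.36), Ldb3 (1.12), Myh6 (1.04) and Des (1.01).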

How the results depend on the processing

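No value of a named gene changed direction under any alternative run, and 2318 of 2439 kept their side of the thresholds. These genes had already been called in the main fit of the same counts. Many of the values also come from fits that left out a library outside the comparison, such as a Control library for line 2 against line 1. Much of this stability was therefore built in. The increases in Mta123KO numbered 22 to 24 labelled 2iL and 21 to 22 labelled 48h when each library was left out, and a replicate block left the counts at 22 increased and 3 decreased labelled 2iL and 22 and 1 labelled 48h; outside Ttn in Mta2_KO the block, paired or by number only, changed no call of a named gene. The same count held with ERCC scaling labelled 2iL (22 and 3). The number of decreases labelled 2iL was 1 to 4 on leaving out a library, and 1 without Mta123KO library 2_1, and the 1 decrease labelled 48h became 2 with DESeq2, with no filter, in 1 fit of all libraries and without the fold threshold. In Mta2_KO the count of increases, 0, became 1 with the olfactory receptor covariate and 4 without the fold threshold, with 0 to 1 on leaving out a library (1 without Mta2_KO 2 or Mta2_WT 3), and the 3 decreases became 5 without the fold threshold. In Mta3_del the count of increases, 0, became 1 with DESeq2 and 1 without the fold threshold, with 0 to 1 on leaving out a library (1 without Mta3_del 2), and the 3 decreases became 1 with the covariate and 0 to 3 on leaving out a library. With the libraries left out in turn in the line fits, line 2 was below line 1 for 12 to 18 genes labelled 2iL (12 without Mta123KO 2_1 or 2_2) and 10 to 16 labelled 48h (10 without 1_1 or 2_2), and above it for 3 to 6 labelled 48h (3 without the same libraries). Decreases against Control labelled 48h were 1 to 2 in line 1 (1 without Mta123KO 1_1) and 1 to 3 in line 2 (1 without 2_2), and increases between labels in Mta123KO 3 to 7 (3 without 1_1 or 1_2 labelled 48h). The interaction of genotype and culture label was called for 6 to 9 genes in the positive and 5 to 7 in the negative direction on leaving out a library, against 8 and 6. The causes were not tested. Depth limits the genes under 1 CPM, where a few counts decide a ratio, and with 1 library left in an arm the spread of the other groups is assumed for it.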
